A study of Macaca fascicularis with 1154 samples.

Results

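The cells described here are single cells of cultured cynomolgus monkey (Macaca fascicularis) embryos in which 2 Ensembl-type gene IDs, ENSMFAG00000000002 and ENSMFAG00000000004, together took 20% or more of all counts. They were chosen by that measured share, and they are called high-share cells below. Of 593 cells with at least 100000 counts and 2000 detected IDs, 104 (17.5%) were high-share and 489 were under 20%. Comparisons used the 7 collections that had 5 or more cells of either kind. These held 88 high-share cells and 335 other cells. The 2 IDs were thought to be the mitochondrial ribosomal RNAs from their order and abundance. The files pair no ID with a gene name, and 0 of the 28592 IDs matched the gene table used, so this identity could not be checked and no member gene is given a name or a function.

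Mitochondria carry their own small genome, which encodes a small and a large ribosomal RNA, a set of transfer RNAs and a few proteins of the respiratory chain. Its transcripts receive poly(A) tails, so a method primed on poly(A), such as SMART-seq2, can capture them together with messenger RNA from the nucleus. In single-cell work a large mitochondrial share is widely used as a mark of a damaged or RNA-poor cell, but it also differs between healthy cell types.

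The study cultured monkey embryos in vitro to follow how embryonic and extra-embryonic lineages are specified. Every sample was 1 cell picked by mouth pipette after trypsin digestion, and all carried the same tissue label, embryo, with no genotype, treatment or cell type. Titles gave the embryonic day, read from the number after E (9, 11, 13, 15, 17, 19 or 20), and a B number whose meaning is not stated. A day and B number together are called a collection. Nothing in the labels tells whether 2 collections came from different embryos. The spread between collections, on which every p-value below rests, may therefore be technical. The other cells of a collection can hold several cell types, whose part in each result was not tested. Values were found for 600 of 1154 samples. The other 554 were not analysed here. Of the 7 cells that failed the filters, 1 was at 20% or more.

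High-share cells occurred in 13 of the 15 collections and on each of the 7 days. They made up 22.2% of kept cells on day 9, 21.1% on day 11, 23.4% on day 13, 19.0% on day 15, 10.1% on day 17, 27.4% on day 19 and 9.52% on day 20. The share of such cells thus went up and down between days and had no single direction. Collections of 1 day also differed. On day 17, high-share cells were 11 of 71 cells in E17 B5 (15.5%, exact 95% interval 8.00 to 26.0%) but 1 of 37 in E17 B1 (2.70%, 0.0684 to 14.2%). On day 20 they were 8 of 63 in E20 B1 (12.7%, 5.65 to 23.5%) and 0 of 21 in E20 B2, which allows up to 16.1%. The highest proportion in a compared collection was 16 of 51 cells in E19 B1 (31.4%, 19.1 to 45.9%). These intervals cover counting error only, and those of the pairs of 1 day overlap.

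**Figure D1:**
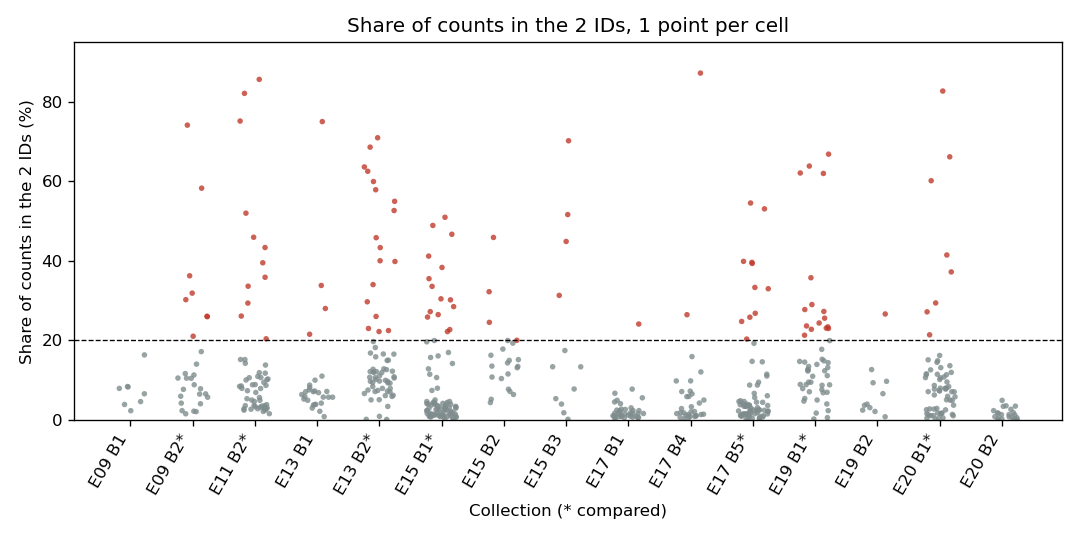
Share of all counts in the 2 IDs (y axis, percent) for each kept cell, with 1 point per cell, by collection (x axis; stars mark the 7 compared collections). The dashed line is at 20%: 104 cells lie above it, the highest at 87.3%, and many cells lie just below it, with no gap between the 2 sides.

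Within the high-share cells the summed share of the 2 IDs ran from 20.0 to 87.3% with a median of 33.7%, and 28 cells stood at 50% or more. The other cells had a median of 4.46%, and 110 of them stood between 10 and 20%. The 5 cells just inside the limit stood at 20.0, 20.3, 20.4, 21.1 and 21.3%. The 5 just outside stood at 19.6, 19.7, 19.96, 19.97 and 19.98%. The limit thus cuts a continuous range and does not mark a separate class of cells.

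ENSMFAG00000000004 supplied most of the share. It took 29.5% of counts in the median high-share cell (13.2 to 77.1%), against 4.18% in the median other cell. It was the most abundant ID in all 104 high-share cells and in 328 of the 489 others. ENSMFAG00000000002 took 2.86% in the median high-share cell (0.0377 to 38.9%) and 0.129% in the median other cell. It was below ENSMFAG00000000004 in each of the 593 cells.

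The balance of the 2 IDs was not the same in all high-share cells. The median ratio of ENSMFAG00000000004 to ENSMFAG00000000002 in high-share cells was 44.6 in E09 B2, 61.3 in E11 B2 and 46.5 in E19 B1. It was 6.62 in E13 B2, 6.72 in E15 B1, 5.60 in E17 B5 and 10.5 in E20 B1. In the other cells of these 7 collections it was between 12.7 and 56.8. High-share cells of 4 collections were thus richer in ENSMFAG00000000002, relative to its partner, than those of the other 3. These values use the IDs that chose the cells and carry no test.

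High-share cells held far fewer counts outside the 2 IDs. The median high-share cell had 641538 such counts in E09 B2, 1399765 in E11 B2, 306232 in E13 B2, 457630 in E15 B1, 192016 in E17 B5, 966294 in E19 B1 and 850381 in E20 B1. The median other cell of the same collections had between 2205949 and 6947651. The ratio of the medians lay between 0.0870 in E17 B5 and 0.355 in E19 B1. On the log2 scale the difference was -2.61 ± 0.63 (SD, n = 7 collections), lower in 7 of 7, or a ratio of 0.163. The exact two-sided sign-flip permutation test over collections gave p = 0.0156, the smallest it can give, and the same value after Benjamini-Hochberg adjustment over 5 measures. These counts are part of the share's denominator, so the difference is partly the same measure as the rule. SMART-seq2 counts reads, not molecules, so less RNA per cell and fewer reads sequenced cannot be told apart.

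To set depth aside, each cell was thinned to 50000 counts outside the 2 IDs. High-share cells then showed fewer detected IDs. The median high-share cell had 1801 in E09 B2, 2810 in E11 B2, 2292 in E13 B2, 2140 in E15 B1, 3001 in E17 B5, 1522 in E19 B1 and 2160 in E20 B1. The median other cell had 3715, 4360, 3382, 4972, 4382, 2595 and 3553 in the same order. Means over collections were 2246 ± 521 and 3851 ± 785 (SD, n = 7), a difference of -1605 ± 612 that was negative in 7 of 7 (exact sign-flip permutation p = 0.0156, adjusted 0.0156). The gap was widest in E15 B1, at -2832 IDs, and narrowest in E19 B1, at -1073.

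The remaining counts were also spread over fewer IDs. In the median high-share cell, 4 IDs made up 50% of the thinned counts in E09 B2, 52 in E11 B2, 111.5 in E13 B2, 94 in E15 B1, 74 in E17 B5, 82 in E19 B1 and 102.5 in E20 B1. In the median other cell it took between 132 and 301 IDs. The difference was -114.5 ± 49.1 IDs (SD, n = 7), in 7 of 7 collections (exact sign-flip permutation p = 0.0156, adjusted 0.0156). E09 B2 stood apart from the rest with its 4 IDs, and the smallest difference was -29.5 in E20 B1.

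The profiles of high-share cells lay further from their collection. Pearson's r between a cell's thinned log2 profile and the mean of the other cells of its collection was 0.623 ± 0.057 for the median high-share cell and 0.823 ± 0.062 for the median other cell (SD, n = 7). The difference was -0.200 ± 0.022 and ranged only from -0.165 in E19 B1 to -0.223 in E15 B1 (exact sign-flip permutation p = 0.0156, adjusted 0.0156). The mean is made of other cells, which favours their own side. High-share cells were also less like each other than other cells were. The mean r between pairs of them lay between 0.327 in E19 B1 and 0.561 in E11 B2, against 0.491 to 0.786 between pairs of other cells. No test was made of the pairs, which share cells.

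High-share cells were also placed among the cells under 20%. For each of them the 15 nearest cells by r were found among the 489 cells under 20% of all collections. In E11 B2, 76.7% of these nearest cells came from the same collection, where 9.20% would with no preference. In E20 B1 the value was 62.5% against 11.2%, and in E15 B1 48.9% against 14.7%. In E13 B2 it was 4.44% against 9.82%. It was 35.8% against 4.09% in E09 B2, 29.7% against 12.3% in E17 B5 and 20.0% against 7.16% in E19 B1. High-share cells thus drew more of their nearest cells from their own collection than its size gives in 6 of 7 collections, with E13 B2 as the exception. For cells under 20% the same value was 31.3% in E09 B2, 83.6% in E11 B2, 13.8% in E13 B2, 79.0% in E15 B1, 63.2% in E17 B5, 17.3% in E19 B1 and 71.0% in E20 B1. High-share cells were thus below them in 5 of 7 collections, by the most in E17 B5 and E15 B1.

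The differences in detected IDs, in IDs making up 50% of counts and in similarity were smaller, on average, against shallower other cells. When each collection's other cells were limited to those with the fewest counts, as many as there were high-share cells, high-share cells still had 0.368 times their counts. This comparison was chosen after seeing the data. Detected IDs at equal depth then differed by -542 ± 456 (exact sign-flip permutation p = 0.0312, adjusted 0.0391), against -1605 with all other cells. The IDs making up 50% of counts differed by -73.2 ± 55.7 and the similarity to those shallow cells by -0.0871 ± 0.0635 (both exact sign-flip permutation p = 0.0312, adjusted 0.0391, SD, n = 7). Each of the 3 was lower in 6 of 7 collections. E20 B1 was the exception, at 5 IDs more, 1 ID more and 0.0403 higher. The 3 differences were thus 33.8, 63.9 and 43.6% of those against all other cells. In E20 B1 the shallow other cells were level with the high-share cells in the first 2 measures and below them in similarity. Among other cells, Spearman's rho between the share in the 2 IDs and the counts outside them was -0.522 in E15 B1. It was -0.0210 in E19 B1, 0.117 in E20 B1 and between the first 2 values elsewhere. Shallow other cells thus tended to have a larger share in the 2 IDs in most collections. The counts outside the 2 IDs are part of that share's denominator, so a negative rho is partly built in. The parts of depth and of this share were not tested apart.

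**Figure D2:**
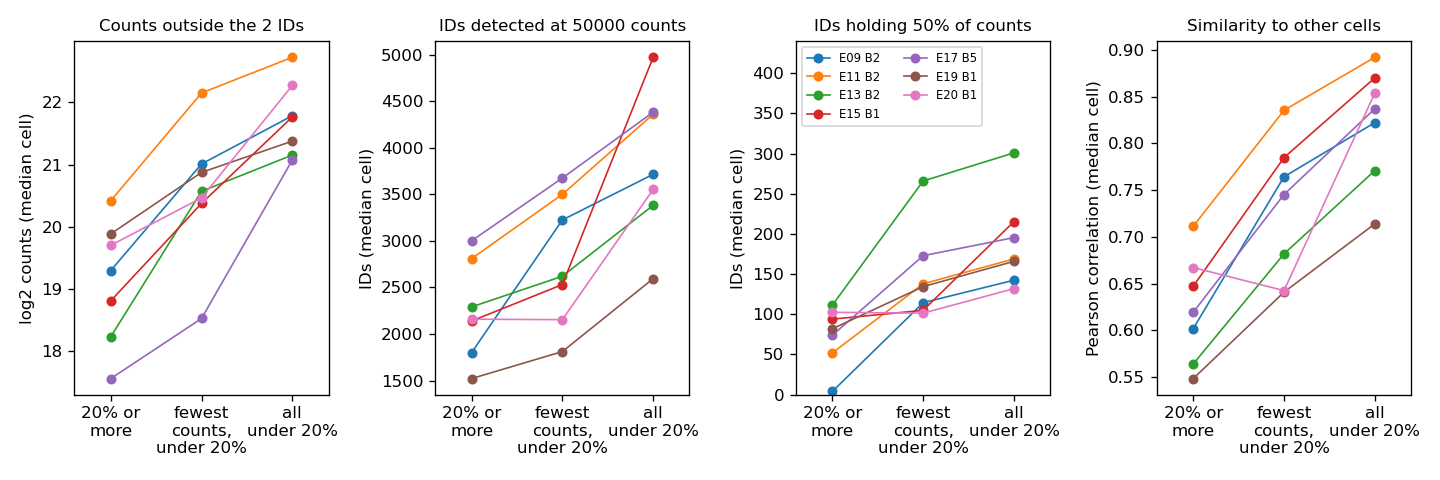
Median cell of each of the 7 collections (1 line each) for high-share cells, the other cells with the fewest counts and all other cells. The panels show log2 counts outside the 2 IDs, IDs detected at 50000 counts, IDs holding 50% of those counts, and Pearson's r with the other cells. High-share medians are the lowest of the 3 in every panel and collection, except in E20 B1, whose shallow other cells stand at a like level in detected IDs and 50% IDs and lower in r. The r of the shallow cells is with their own mean, the others with the mean of all other cells.

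The IDs numbered next to the 2 IDs did not follow them. Of the IDs numbered 1 to 37, 35 other than the 2 were in the file, and 24 of them had no count in any cell. The other 11 together took a median of 0.0030% of the remaining counts in high-share cells and 0.0120% in other cells (means over 7 collections, lower in 7 of 7, exact sign-flip permutation p = 0.0156). With means over cells in place of medians the difference was +0.000345 percentage points (exact permutation p = 0.984), so its direction turned with the summary used. Against the other cells with the fewest counts it was -0.0035 (exact permutation p = 0.203).

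The remaining RNA was then compared ID by ID, on counts summed per collection and side with the 2 IDs left out, in edgeR's quasi-likelihood test with the collection as a block. At a Benjamini-Hochberg adjusted p under 0.05, 182 of 12066 IDs (1.51%) differed. Of these, 88 (0.729%) were higher in high-share cells and 94 (0.779%) lower, and 2693 had an unadjusted p under 0.05. The 88 higher IDs had a median log2 fold change of 2.47 (1.16 to 6.93), and 81 of them moved the same way in all 7 collections. The 94 lower IDs had a median of -4.83 (-7.86 to -2.43), and 79 moved the same way in all 7. The IDs were called from these same collections, which favours a like direction. The share of all IDs tested that moved alike is not given here, so these counts are a description. The ranges over collections did not overlap for 41 higher and 36 lower IDs, against 1.72% of all IDs tested.

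Higher and lower IDs stood at different levels. The higher IDs had a median log2 CPM (counts scaled to a common library size, with TMM factors) of 8.07 and the lower ones of 0.59. IDs were also divided by mean level into 3 classes of 4022. In the highest class 82 were higher and 6 lower, in the middle class 4 and 5, and in the lowest class 2 and 83. The 94 lower IDs had a median of only 7 counts over all high-share sums, which held 78519973 counts in all, against 4544 in the other sums of 1255575479 counts. For 21 of them the high-share sums held 3 counts or fewer. Most of the lower IDs were therefore known in high-share cells from a few reads.

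The balance of the calls depended on scaling and on the cells compared. The median of all 12066 IDs lay at -0.92 with TMM, so the typical ID was lower in high-share cells on this scale. RLE factors put it at -0.65 and called 115 IDs higher and 44 lower. Library totals put it at -1.84 and called 41 IDs higher and 2240 lower. Called in the same direction under all 3 scalings were 37 of the 88 higher and 44 of the 94 lower IDs. DESeq2 called 666 higher and 1663 lower, among them 84 of the 88 and 87 of the 94. Against the other cells with the fewest counts, 14 IDs were higher and 1 lower. All 85 higher IDs that could be tested there were still above 0, and their median fold change went from 2.43 to 1.48. Leaving out E09 B2, E11 B2, E13 B2, E15 B1, E17 B5 or E20 B1 reduced the 182 calls to 38, 46, 46, 42, 50 or 56.

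**Figure D3:**
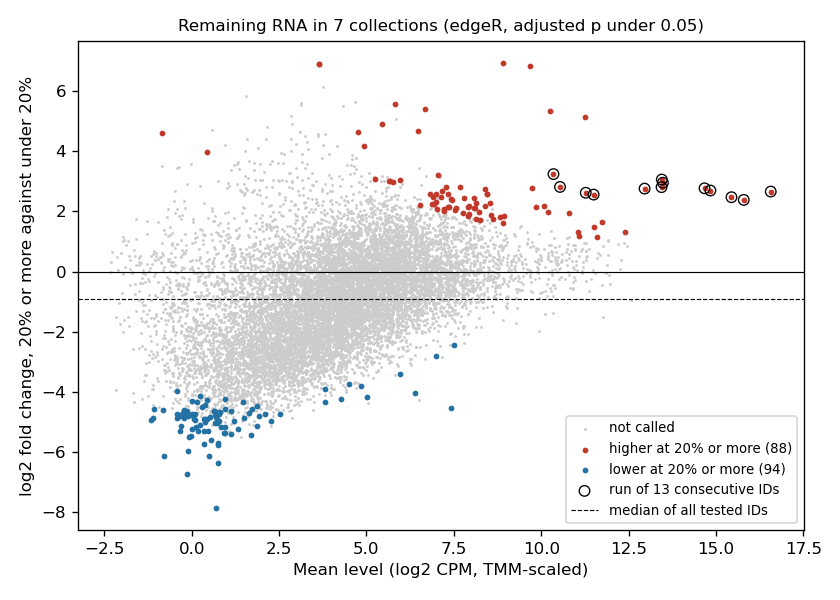
Log2 fold change between high-share and other cells (y axis) against mean level (x axis, log2 CPM) for the 12066 IDs tested, 1 point each, with the 88 higher IDs in red and the 94 lower IDs in blue. Most higher IDs lie at high levels and most lower IDs at low ones. The 13 ringed IDs, which bear consecutive numbers, are all among the higher ones, and the dashed line marks the median of all IDs at -0.92.

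The 13 IDs numbered ENSMFAG00000046415 to ENSMFAG00000046427, the highest numbers in the file, stood out among the higher IDs. This run was singled out after its values were seen, so its count is a description. All 13 were called higher, with log2 fold changes between 2.38 and 3.24 and mean levels from 10.4 to 16.6 log2 CPM (adjusted p between 4.68e-07 and 0.000494, edgeR). Each was higher in all 7 collections. All 13 were also called with library totals, at 1.45 or more. Against the other cells with the fewest counts, 9 of the 13 were called and all lay between 1.57 and 2.12. The files give no name for these IDs.

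The run took a part of what the 2 IDs left that differed widely between collections. Its summed share of the remaining counts in the median high-share cell was 68.7% in E09 B2, 35.1% in E11 B2, 5.73% in E13 B2, 4.78% in E15 B1, 28.4% in E17 B5, 8.85% in E19 B1 and 12.8% in E20 B1. In the median other cell it was 13.5, 6.39, 4.80, 3.21, 3.99, 4.14 and 6.59% in the same order. The high-share median was thus above that of the other cells in 7 of 7 collections, from 1.19 times in E13 B2 to 7.12 times in E17 B5. The run took 50% or more of the remaining counts in 12 of the 104 high-share cells, 5 of them in E09 B2 and 4 in E11 B2, and in 2 of the 489 other cells. The ranges of single cells overlapped in every collection.

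The 16 high-share cells of the 6 collections left out of the comparison took no part in the edgeR calls. It is not shown that they had no part in the choice of the run. Their run share had a median of 12.8% (2.91 to 77.5%), against 2.76% in the 154 other cells of the 8 collections left out. These medians pool cells over collections and do not set each collection against its own cells. E15 B2 gave 4 high-share and 18 other cells, E17 B1 gave 1 and 36, and E20 B2 gave 0 and 21. Within each of the 8 collections left out, Spearman's rho between a cell's share in the 2 IDs and the run's share of the rest lay between 0.358 and 0.833 over 8 to 37 cells. Among their cells under 20% alone it lay between 0.303 and 0.833. The numerators of the 2 shares have no count in common. The remaining counts, the run among them, are part of both denominators, and each pair comes from the same cell and library. Among cells under 20%, those with more of the 2 IDs thus tended to have more of the run. No rho was computed among high-share cells alone.

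The 2 IDs were also set against the run as a ratio of counts. In the median other cell of the compared collections the 2 IDs held 0.967 times the counts of the run, and in the median high-share cell 5.60 times. The ratio was higher in high-share cells in 7 of 7 collections, by a factor of 1.14 in E09 B2 to 13.6 in E15 B1. In E13 B2 the 2 IDs held 17.9 times the counts of the run, and in E09 B2 0.617 times. The numerator of this ratio is the counts that chose the cells, so a higher value in high-share cells is largely fixed by the choice. The ratio carries no test. Single high-share cells ran from 0.420 to 85.8 in this ratio, so cells with much of the run and cells with little of it were both present.

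The run's share was also followed along the share of the 2 IDs. In the compared collections the median run share was 1.67% in cells under 2% in the 2 IDs, 4.72% at 2 to 5%, 5.82% at 5 to 10%, 8.55% at 10 to 20%, 14.2% at 20 to 30%, 11.1% at 30 to 50% and 9.56% at 50% or more. Over these pooled cells the median was highest at 20 to 30% and not in the cells with the largest share. The classes pool collections of unlike run share, so this peak need not hold within each. In E11 B2 the run took 20.8 to 34.7% at 20 to 30%, 43.8 to 86.0% at 30 to 50% and 8.99 to 35.6% at 50% or more. In the collections left out the pooled median was highest at 30 to 50%, at 16.8% in 5 cells. The ratio of the 2 IDs to the run rose from 0.641 in the lowest class to 2.48 at 20 to 30%, 5.64 at 30 to 50% and 28.0 at 50% or more. In the collections left out it was 0.649 in the lowest class and 21.6 in the 4 cells of the highest. The classes are cut by the 2 IDs, which are also the numerator of this ratio, so its rise is largely fixed by the grouping.

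**Figure D4:**
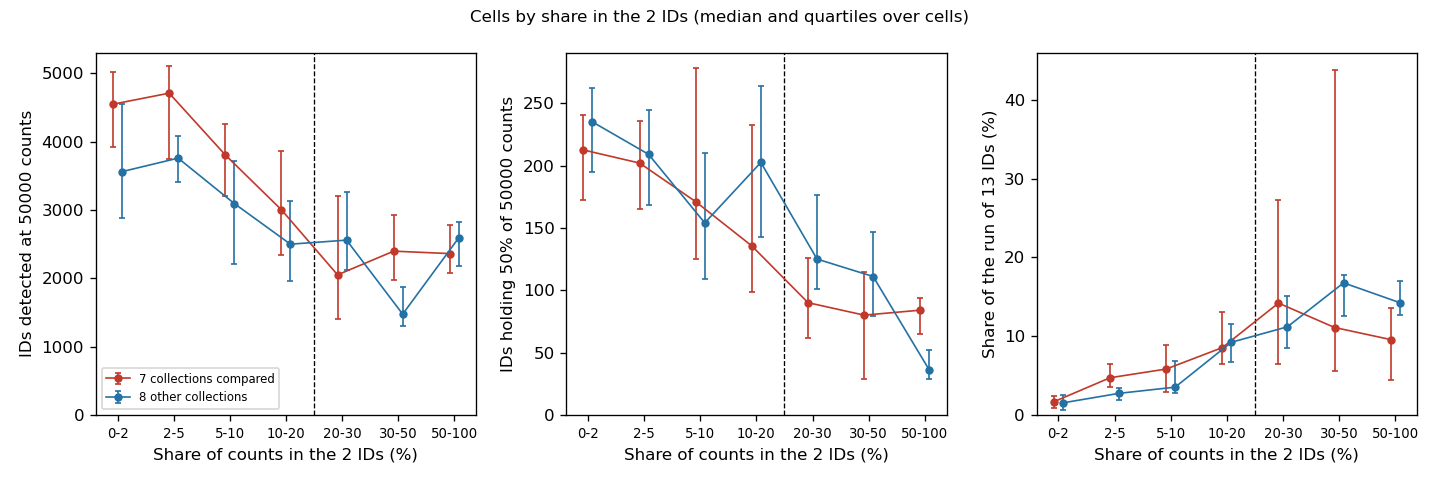
Cells grouped by their share in the 2 IDs (x axis, percent), in the 7 compared collections (red) and the 8 others (blue), with the median and quartiles over cells for IDs detected at 50000 counts, IDs holding 50% of those counts, and the run's share of the remaining counts (percent). Detection and evenness fall before the dashed line at 20%, from 4547 to 3001 and from 213 to 136 IDs in the compared collections, and the run's share rises from 1.67 to 8.55%.

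The differences in detection and evenness were smaller on average without the run but did not end. With its 13 IDs left out as well, an alternative chosen after seeing the data, detected IDs at equal depth differed by -1210 ± 546 and the IDs making up 50% of counts by -89.7 ± 73.1 (SD, n = 7, both lower in 7 of 7, exact sign-flip permutation p = 0.0156, adjusted 0.0156). The similarity differed by -0.200 ± 0.025. In E09 B2 the IDs making up 50% of the counts went from 4 to 140.5 in the median high-share cell. In E20 B1 the difference in these IDs went from -29.5 to -20.5. It grew in E13 B2, from -189.5 to -233.5, and in E15 B1, from -121.5 to -128.0, and shrank in the rest. The difference in detected IDs grew slightly in E13 B2, from -1090.5 to -1108, and in E20 B1, from -1393.5 to -1395, and shrank in the rest. With the run left out, edgeR called 157 IDs, 65 higher and 92 lower. Of the 75 higher IDs outside the run, 65 were still called and all 75 lay above 0.

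The most abundant ID of the run was ENSMFAG00000046421. It was the most abundant remaining ID in 51 of the 104 high-share cells and in 128 of the 489 others. Its share of the remaining counts in the median high-share cell was 22.9% in E09 B2, 10.8% in E11 B2, 0.872% in E13 B2, 1.21% in E15 B1, 6.90% in E17 B5, 3.69% in E19 B1 and 4.16% in E20 B1. In the median other cell it was 4.94, 1.47, 0.790, 0.688, 1.04, 1.56 and 2.00%. Its log2 fold change was 2.66 ± 0.30 (SE, adjusted p = 4.13e-06, edgeR), with high-share cells above the others in 7 of 7 collections. A single other cell of E11 B2 held 57.8% of its remaining counts in this ID.

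The 75 higher IDs outside the run were called from cells on either side of 20%, so their step there is no finding. Their summed share of the remaining counts was 2.26% in the median cell under 2% in the 2 IDs and 2.43% at 10 to 20%. It was 2.95% at 20 to 30%, 6.85% at 30 to 50% and 10.5% at 50% or more. In the collections left out, which had no part in calling them, it was 1.98, 2.19, 4.76, 4.46 and 7.84% in the same classes. Over the 4 classes below 20% these medians stayed between 1.98 and 2.56% in both sets of collections. They were highest in the class at 50% or more in both, with cells pooled over collections.

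The IDs named by rule are those with the largest fold changes among called IDs with a mean level of at least 5 log2 CPM and the same direction in every collection. These conditions were met by 78 higher and 2 lower IDs. Both named higher IDs lay outside the run. ENSMFAG00000009591 had TMM-scaled CPM of 1416 in the high-share cells of E09 B2, 1040 in E11 B2, 1034 in E13 B2, 1387 in E15 B1, 637.5 in E17 B5, 765.7 in E19 B1 and 321.4 in E20 B1. In the other cells it had 3.58, 11.6, 1.99, 17.5, 6.79, 4.35 and 29.9 CPM. The sides were far apart in all 7 collections, and E20 B1 had both the lowest high-share and the highest other value. The log2 fold change was 6.93 ± 0.66 (SE, adjusted p = 4.22e-07, edgeR).

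Single cells shared the rise of ENSMFAG00000009591 unevenly. It passed 100 CPM in 51 of 88 high-share cells (58.0%) and in 26 of 335 others (7.76%). Its median was 233 CPM in high-share cells and 0.693 in others. Within a collection's high-share cells, 1 cell held from 22.2% (E13 B2) to 65.8% (E19 B1) of its counts. Of the 6 left-out collections with high-share cells, it was higher there in 5, by unlike amounts. It had 5802 against 86.1 CPM in E13 B1, 1125 against 295 in E19 B2 and only 12.3 against 2.25 in E15 B2. In E17 B1, with 1 high-share cell, it had 0 counts.

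ENSMFAG00000008501 had 153.0 CPM in the high-share cells of E09 B2, 1259 in E11 B2, 1970 in E13 B2, 1034 in E15 B1, 6367 in E17 B5, 211.8 in E19 B1 and 459.1 in E20 B1. In the other cells it had between 2.80 and 22.0 CPM. The sides did not overlap, and E17 B5 was more than 3 times above the next collection. The log2 fold change was 6.83 ± 0.65 (SE, adjusted p = 4.22e-07, edgeR). The rise rested on fewer cells than that of ENSMFAG00000009591. It passed 100 CPM in 41 of 88 high-share cells (46.6%) and in 15 of 335 others (4.48%). In E09 B2, 1 cell held 98.9% of its counts. In the left-out collections it was higher in 5 of 6 and lower in E15 B3, at 11.2 against 45.8 CPM.

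The 2 named lower IDs passed 100 CPM in a minority of cells on either side. ENSMFAG00000041244 had 0 counts in the high-share cells of E09 B2 and E11 B2, and 11.1 CPM in E13 B2, 4.36 in E15 B1, 1.26 in E17 B5, 0.643 in E19 B1 and 9.81 in E20 B1. In the other cells it had 2.05, 0.112, 230.8, 77.9, 18.4, 16.9 and 82.0 CPM. Each collection was lower on its high-share side, but the ranges over collections overlapped. The log2 fold change was -4.17 ± 0.91 (SE, adjusted p = 0.0262, edgeR). It passed 100 CPM in 0 of 88 high-share cells and in 37 of 335 others (11.0%), while the median cell had 0.758 and 0.415 CPM. The difference thus lay in a minority of other cells with a high level, not in the median cell.

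ENSMFAG00000001502 had 11.9 CPM in the high-share cells of E09 B2, 3.96 in E11 B2, 84.7 in E13 B2, 10.1 in E15 B1, 28.9 in E17 B5, 3.03 in E19 B1 and 2.32 in E20 B1. In the other cells it had 89.5, 79.2, 88.0, 123.5, 198.3, 78.9 and 60.0 CPM. E13 B2 hardly differed between its sides, and there 1 cell held 46.7% of the high-share counts. The log2 fold change was -3.41 ± 0.79 (SE, adjusted p = 0.0334, edgeR). It passed 100 CPM in 3 of 88 high-share cells (3.41%) and in 73 of 335 others (21.8%). The median cell had 5.35 CPM on the high-share side and 1.94 on the other, so the median cell went against the direction of the summed counts. The call of this ID ended under 13 of 23 alternatives and that of ENSMFAG00000041244 under 9 of 22, while both higher IDs were called in all 23. Both lower IDs lost it with limma, without the block, at limits of 10 or 30%, with at least 10 cells per side and without E15 B1, E17 B5 or E20 B1. Without E13 B2 (adjusted p = 0.0709, edgeR) ENSMFAG00000041244 lost it as well, and without E09 B2 or E11 B2 (0.0631 and 0.0742, edgeR) ENSMFAG00000001502 did.

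**Figure D5:**
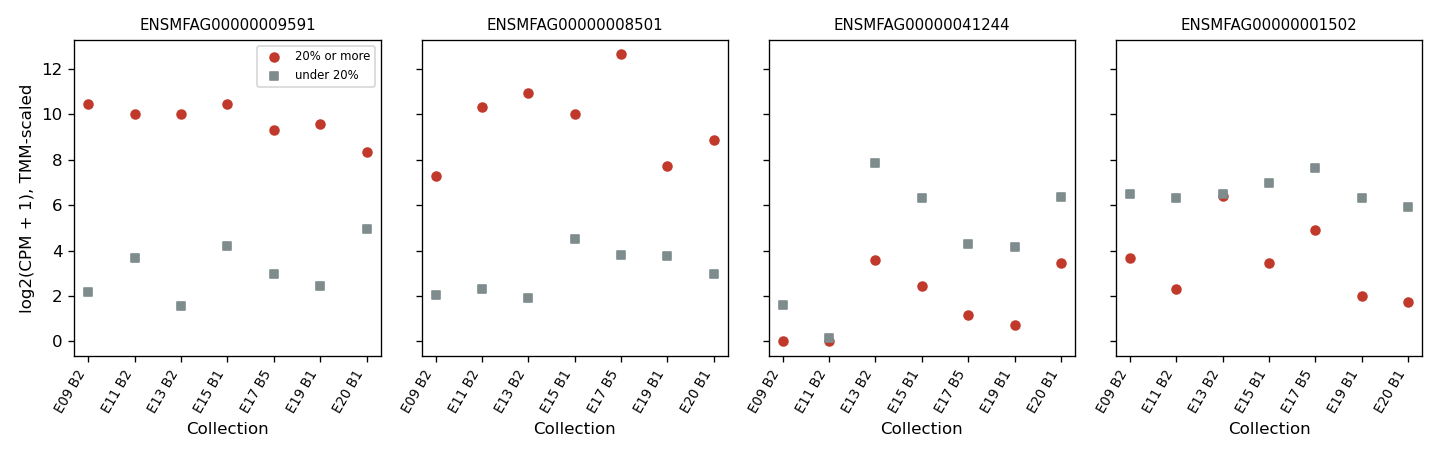
TMM-scaled level on the log2(CPM + 1) scale (y axis) of the 4 named IDs, 1 panel each, in the 7 collections (x axis). Red circles are the sums of high-share cells and grey squares those of the other cells. The red points of the 2 higher IDs lie above all grey ones. Those of the 2 lower IDs lie below the grey point of their own collection, almost at it in E11 B2 for ENSMFAG00000041244 and in E13 B2 for ENSMFAG00000001502, and the ranges of both overlap.

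The collections left out gave a view of the called IDs in cells that did not call them. There the mean log2 ratio over 6 collections, each set against its own other cells, was above 0 for 54 of the 88 higher IDs (61.4%), against 6.12% of all IDs tested. For the 94 lower IDs it was below 0 in 90 (95.7%), against 93.8% of all IDs tested. These ratios used library totals, while the IDs were called with TMM factors. On totals nearly all IDs tested lay below 0, which leaves little room for a gap at the lower IDs. The higher IDs thus lay above 0 more often than all IDs tested, while the share of lower IDs was near the background. All IDs tested are not matched to them on level: 82 of the 88 higher IDs stood in the highest level class. The part of level in this gap was not tested. With 1 to 4 high-share cells per collection, no test was made. With the cells of all left-out collections pooled, 90.9% of the higher IDs lay above 0, against 26.1% of all IDs tested. Of the lower IDs, 87.2% then lay below 0, against 73.8%. That pool does not set each collection against its own cells.

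IDs that nearly every cell expresses were compared as a group. The list holds the 677 IDs with a count in at least 95% of the cells under 20% in the collections left out, and all 677 could be tested. In the compared collections, 39 of them were higher (5.76%) and 0 lower by edgeR, against 0.729% and 0.779% of all IDs. Their median log2 fold change was 0.29, against -0.92 for all IDs. With library totals, 21 were higher and 116 lower and the median was -0.64, where that of all IDs was -1.84. Another scaling moves all IDs of a sum alike, so it bears on the sign of these medians and not on the distance between them, 1.21 with TMM. The list was not matched on level with all IDs: the 4022 IDs of the highest level class had a median of -0.09, and 2.04% of them were higher.

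A pair of IDs that earlier results of these data placed in different clusters of cells was looked at in the same way. After thinning, ENSMFAG00000001837 had a count in 12 of 88 high-share cells (13.6%) and 42 of 335 others (12.5%). ENSMFAG00000038308 had one in 16 (18.2%) and 46 (13.7%). Before thinning the shares were 31.8 and 37.0% for the first and 42.0 and 42.4% for the second. High-share cells thus included cells with and without each of these IDs.

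The difference between high-share and other cells was also tested for a change with the day, as an interaction in the same edgeR fit. It was called for 2 of 12066 IDs (0.0166%), and 755 had an unadjusted p under 0.05. For ENSMFAG00000001224 the log2 difference changed by 1.11 per day (adjusted p = 0.0454, edgeR). In E09 B2 it had 0 counts on both sides. In E11 B2, E13 B2 and E15 B1 it was lower in high-share cells, at 0.0616, 4.77 and 6.45 CPM against 4.35, 118.9 and 80.4. Later it was higher there, at 193.2, 741.7 and 2462 CPM in E17 B5, E19 B1 and E20 B1, against 58.4, 77.4 and 637.6 in the other cells. For ENSMFAG00000003765 it changed by -0.71 per day (adjusted p = 0.0454, edgeR). It was higher in high-share cells at first, at 4669 against 1481 CPM in E09 B2, and lower from day 15, with 0 counts against 5.19 CPM in E20 B1. Neither ID differed between the sides over all days (adjusted p = 0.663 and 0.556, edgeR), and only 1 collection stood for each day. Both calls ended under most alternatives, which called 0 to 2 IDs.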

How the data were processed

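Deposited values were estimated counts per gene ID and cell, not normalized. STAR 2.3.4 and RSEM were used, per the submitters' processing notes. The genome build and gene models were not given in the sources used here. Expected counts deposited by the authors were rounded to whole numbers. Of values above 0, 6.34% in high-share and 10.2% in other cells were not whole (tolerance 1e-06). Total counts per kept cell ran from 107155 to 18828705. SMART-seq2 has no molecular identifiers, so intervals cover counting error only.

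Both IDs were left out before scaling. Counts were summed per collection and side and tested with edgeR 4.0.16 (filterByExpr, TMM, quasi-likelihood, collection block, Benjamini-Hochberg, threshold 0.05). Profiles used log2(counts per 10000 + 1) after thinning (seed 1). Medians per collection were compared by exact sign-flip permutation, two-sided, over 5 measures. Named IDs were the 2 largest folds per direction (adjusted p under 0.05, log2 fold change at least 1, log2 CPM at least 5, all collections alike), and 1 per direction with the day. Fits and tests were tested on simulated data. Members, lists and tests were chosen with earlier results of these data known. DESeq2 1.42.0, limma 3.58.1, other scalings, filters, limits and left-out collections were alternatives.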

Additional observations from a re-analysis of the deposited data

Results flagged for a closer look

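A single collection stood far from the other 6 in 3 of 23 groups of values examined. Chance alone gives such a gap in about 1 in 20 groups of normally distributed values. All 3 were groups of CPM values on their plain scale, for which this rate need not hold. ENSMFAG00000008501 was at 6367 CPM in the high-share cells of E17 B5, with the next collection at 1970. ENSMFAG00000041244 was at 230.8 CPM in the other cells of E13 B2, with the next at 82.0. ENSMFAG00000001502 was at 84.7 CPM in the high-share cells of E13 B2, with the next at 28.9.

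The difference between high-share and other cells changed with the day for ENSMFAG00000001224, by 1.11 log2 units per day, and for ENSMFAG00000003765, by -0.71 log2 units per day (adjusted p = 0.0454 for both, edgeR interaction test).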

How the results depend on the processing

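The 182 called IDs became 2281 with library totals, 36 with no filter, 65 with no collection block, 15 against the other cells with the fewest counts, 39 with at least 10 cells per side, 23 with a limit of 10%, 307 with a limit of 30%, 2329 with DESeq2 and 6379 with limma. They were 38 to 147 with 1 collection left out (38 without E09 B2, 46 without E11 B2, 46 without E13 B2, 42 without E15 B1, 50 without E17 B5, 147 without E19 B1 and 56 without E20 B1). Without the block 56 were higher and 9 lower, and with limma 164 and 6215. With at least 10 cells per side 39 were higher and 0 lower, of 2217 at an unadjusted p under 0.05.

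The 2 IDs changing with the day became 0 with RLE factors, no filter, cells thinned to 20000 counts, at least 10 or 3 cells per side and limits of 10% or 30%, and 1 with totals and without cells from 10 to 20%. They were 0 to 2 with 1 collection left out. Where edgeR called 0, between 187 and 1297 IDs had an unadjusted p under 0.05.

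With at least 10 cells per side, 5 collections remained, where the exact permutation test cannot go below p = 0.0625. The 5 measures were then -2.64 for log2 counts, -1585 for detected IDs, -126.7 for IDs at 50%, -0.199 for similarity and -0.0100 percentage points for IDs numbered 1 to 37. This last one was +0.000345 with means over cells and -0.0035 against the other cells with the fewest counts. With 1 collection left out the 5 ranged from -2.80 to -2.46, -1694 to -1401, -128.7 to -102.0, -0.206 to -0.196 and -0.0103 to -0.0086, and each exact permutation p was 0.0312, the smallest 6 collections allow.

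No paired analysis was possible because title numbers name single cells, apart from the pairing of both sides within a collection, which the tests already use. Depth limits the lower IDs most, since their median was 7 counts over all high-share sums.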
